A study of Mus musculus with 6 samples.

Results

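The sites described here are places in the mouse genome where an ATF4 peak was listed in fibroblasts lacking GCN2 and also in wild-type fibroblasts. A knockout peak was taken when its center lay 300 bp or less from the center of a peak in a WT list. The sites were thus chosen by measured peak calls, namely the presence of a peak in both genotypes, and that presence is not a finding. The rule took 136 of the 3566 GCN2 KO +Leu peaks (3.81%) and 113 of the 2672 GCN2 KO -Leu peaks (4.23%). Together these 249 peaks made up 210 sites once peaks of both knockout lists within 300 bp of each other were counted once, of 6133 knockout sites in all.

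ATF4 ChIP-seq was performed on primary mouse embryonic fibroblasts (MEFs) of strain 129S6/SvEvTac, using the antibody sc-200. The wild-type (WT) and the GCN2-/- (GCN2 KO) cells were each kept for 24 h in complete DMEM (+Leu) or in DMEM without leucine (-Leu), which gives 4 conditions. Each condition had 1 library, made from chromatin pooled from 2 experiments of at least 5 replicates each, so that differences between conditions have no replicate check and no p-value is given. The control for peak calling was input DNA of the same genotype, and for both -Leu lists it came from leucine-fed cells. The peak lists hold no readout that checks the loss of the kinase or the cell type. The WT lists held 4850 peaks with leucine and 6374 without it, and the score of a peak, as the authors deposited it, started at 13 in each list, with medians of 29 to 30. Sequencing depth is unknown from the lists and scores were not normalized between libraries, so scores of different lists are set side by side only as a description.

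GCN2 is a kinase that senses uncharged tRNA and phosphorylates the translation initiation factor eIF2α. General protein synthesis then slows while the mRNA of ATF4, a bZIP transcription factor, is translated more. ATF4 pairs with members of the C/EBP family on a composite element that joins a C/EBP and an ATF half-site, written TGATGCAA, and activates genes of amino acid synthesis, transport and tRNA charging.

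The sequences at the 3 strongest shared sites of GCN2 KO +Leu show this element within 50 bp of the peak center. Below are the middle 101 bases of the window listed in GCN2 KO +Leu (GCN2 KO -Leu for Tgif1), read from the plus strand of GRCm38, the assembly that mm10 names. These sites were chosen because they are the 3 highest-scoring shared sites of the GCN2 KO +Leu list, the highest-scoring one of the GCN2 KO -Leu list, and the highest-scoring one without TGATGNAA. Capitals mark TGATGNAA or its reverse complement, and the related bZIP sequence TGANTCA.
Chac1, chr2:119351003-119351103: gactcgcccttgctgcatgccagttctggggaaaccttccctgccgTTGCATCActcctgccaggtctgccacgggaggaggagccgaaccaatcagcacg
Ubr2, chr17:46995075-46995175: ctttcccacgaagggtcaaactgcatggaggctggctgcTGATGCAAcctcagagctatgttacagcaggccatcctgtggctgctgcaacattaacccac
Klhdc4, chr8:121851074-121851174: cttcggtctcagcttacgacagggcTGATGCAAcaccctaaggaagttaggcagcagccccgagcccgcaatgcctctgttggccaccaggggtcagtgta
Tgif1, chr17:70836999-70837099: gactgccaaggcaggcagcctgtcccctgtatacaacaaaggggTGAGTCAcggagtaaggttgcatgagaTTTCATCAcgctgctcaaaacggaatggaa
Arl14ep, chr2:106974509-106974609: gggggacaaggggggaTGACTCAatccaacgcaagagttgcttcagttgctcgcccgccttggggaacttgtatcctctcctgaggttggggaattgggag
The Chac1, Ubr2 and Klhdc4 windows held the full element TGATGCAA. The GCN2 KO -Leu peak merged into the Klhdc4 site had another TGATGCAA, 7.5 bp from its center (chr8:121851224-121851231). The Tgif1 window held TGATGAAA, read on the minus strand, and a TGAGTCA. The Arl14ep window held TGACTCA but no TGATGNAA.

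At other shared sites the element and 11 bases to either side are shown in 30-base stretches, each read 5′ to 3′ on the strand that carries it, with the element in capitals. They were picked for the genes whose scores are described further on, with the synthetases, enzymes and stress genes first.
Yars, chr4:129189895-129189924, plus strand: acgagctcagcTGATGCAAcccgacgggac
Iars, chr13:49682126-49682155, minus strand: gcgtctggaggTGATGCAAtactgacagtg
Shmt2, chr10:127521946-127521975, minus strand: agctatggagaTGATGCAAccgagcctcag
Slc7a5, chr8:121898584-121898613, minus strand: gatctggctagTGATGCAAtctgccagcct
Slc38a2, chr15:96699166-96699195, plus strand: ccgggaggaacTGATGCAAtaccgaggggc
Ddit3, chr10:127290481-127290510, minus strand: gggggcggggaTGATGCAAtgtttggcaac
Ppp1r15b, chr1:133131095-133131124, plus strand: ctaggtccggcTGATGCAActcgccgcgtg
Creb3l1, chr2:92055592-92055621, minus strand: tgcttgctgtcTGATGCAAcagtttgcaac
Tbc1d31, chr15:57906842-57906871, minus strand: tggctgccagcTGATGCAAaaccaggcaat
Asns, chr6:7693214-7693243, minus strand: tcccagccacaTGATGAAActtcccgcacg
Mthfd2, chr6:83317169-83317198, minus strand: ttgctgcagtcTGATGAAAtctgtgagccg
Acot2, chr12:83987537-83987566, plus strand: actctaggacgTGATGAAActcaattgcaa
Psat1, chr19:15925177-15925206, minus strand: acgcgggtggcTGGTGCAAtcccctgctct
The Asns, Mthfd2 and Acot2 sites, like Tgif1, carried TGATGAAA in place of TGATGCAA. The Psat1 site, with no TGATGNAA in the middle 101 bases of its window, held the element with 1 other base, A3G, counted from 1 at the 5′ end of TGATGCAA. At Arl14ep the nearest such match had T4A.

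The element set the shared peaks apart from the other knockout peaks. On assembled chromosomes, TGATGCAA lay 50 bp or less from the center, on either strand, in 32 of 129 shared GCN2 KO +Leu peaks (24.8%, with a 95% Wilson interval from 18.2 to 32.9). Of the 3420 peaks of that list without a WT partner it did so in 6 (0.175%, 0.0804 to 0.382). The difference was 24.6 percentage points (Newcombe interval 18 to 32.7). In GCN2 KO -Leu it was 21 of 109 shared peaks (19.3%, 13 to 27.7) against 8 of 2549 others (0.314%, 0.159 to 0.618), a difference of 19 points (12.6 to 27.4). Over all knockout peaks the element was found in 1.07% of the +Leu and 1.09% of the -Leu list. The shared peaks therefore held 32 of the 38 TGATGCAA peaks of the GCN2 KO +Leu list (84.2%, 69.6 to 92.6) and 21 of the 29 of the GCN2 KO -Leu list (72.4%, 54.3 to 85.3). These intervals cover counting error only.

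Windows of the same width 1 kb to either side gave the background of the sequence. Around shared peaks none of 258 such windows in GCN2 KO +Leu held TGATGCAA, which allows a share of up to 1.47%. Beside GCN2 KO +Leu peaks without a WT partner the element occurred in 14 of 6840 windows (0.205%, 0.122 to 0.343), and beside those of GCN2 KO -Leu in 13 of 5098 (0.255%, 0.149 to 0.436). The intervals of the unpartnered peaks themselves overlapped these values. The full CRE TGACGTCA, to which other CREB/ATF dimers bind, was in 0 of 129 and 0 of 109 shared peaks (upper limits 2.89% and 3.4%). TGANTCA takes in the AP-1 sequences TGACTCA and TGAGTCA but allows any base at N. It neither contains TGATGNAA nor is contained in it. TGANTCA was in 6 of 129 shared GCN2 KO +Leu peaks (4.65%) and 76 of 3420 others (2.22%). The interval of that difference, -0.133 to 7.57 points, included 0.

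Shared sites listed in both WT media carried most of the elements. TGATGCAA was present at 36 of 75 sites in both WT lists (48.0%, 37.1 to 59.1) and at 3 of 128 sites in a single WT list (2.34%, 0.8 to 6.66), a difference of 45.7 points (33.9 to 56.9). The 3 were Adm2, which encodes a peptide hormone of the adrenomedullin family, Dpf3, a subunit of chromatin remodelers, and Stk40, a kinase-like protein, each with a partner in WT -Leu only. By the number of WT and knockout lists, TGATGCAA was at 16 of 28 assembled sites in all 4 lists, 20 of 47 in both WT lists and 1 knockout list, 3 of 122 in 1 WT and 1 knockout list, and 0 of 6 in 1 WT and both knockout lists. Both-WT-list peaks without a knockout peak nearby had it too, in 76 of 227 cases (33.5%, 27.7 to 39.8, counted in the WT +Leu window). Counted in that same window, those with a knockout peak nearby had it in 40 of 75 cases (53.3%, 42.2 to 64.2).

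**Figure D1:**
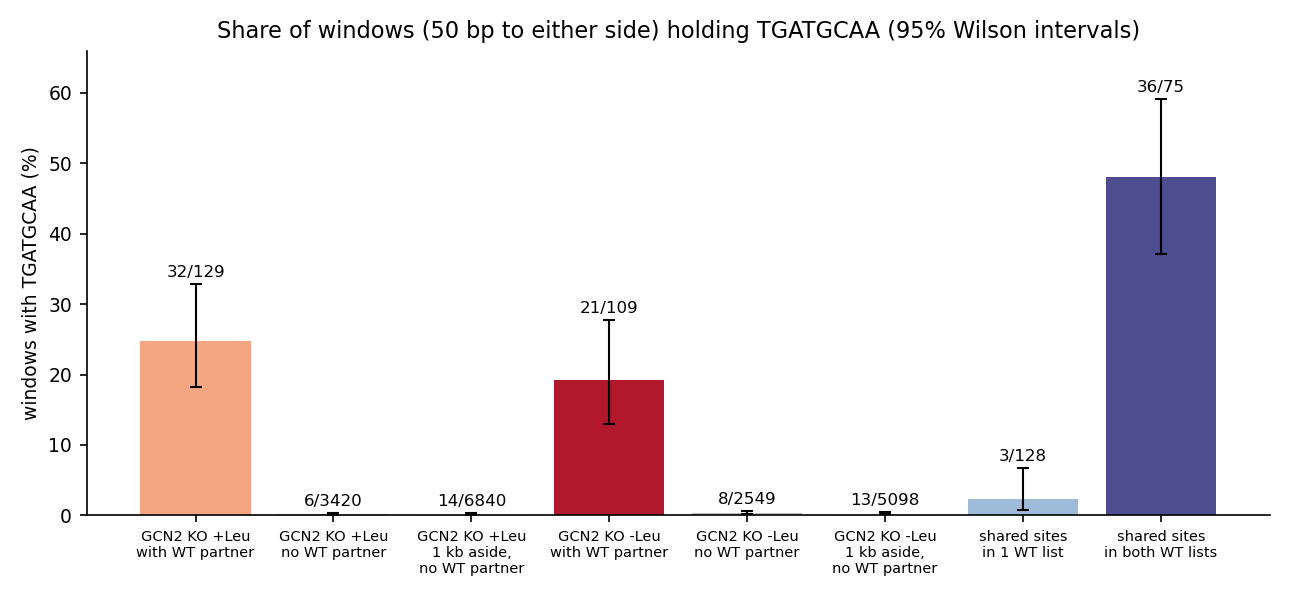
Percent of 101-base windows holding TGATGCAA on either strand, with 95% Wilson intervals and the counts above each bar, for knockout peaks with and without a WT partner, for windows 1 kb to either side of unpartnered peaks, and for shared sites in 1 or both WT lists. The 32 of 129 and 21 of 109 partnered peaks stand far above the unpartnered ones, and the 36 of 75 sites in both WT lists stand highest.

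Letting position 6 of the element vary widened the set. TGATGNAA was at 52 of 203 assembled shared sites (25.6%, 20.1 to 32.0) and at 70 of 5907 unpartnered ones (1.19%, 0.939 to 1.49). Position 6 was C at 39 of the 52, A at 8, T at 5 and G at none. The base after TGATGCAA was C at 18 and T at 15 of the 39 sites, and the base before it was C at 25 and T at none. The middle of TGATGCAA lay a median of 14.5 bp from the knockout peak center, within 10 bp at 17 of the 39 sites, and 3 sites held more than 1 copy.

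How near the partner lay followed the same division. Counted in 100 bp steps, 104 GCN2 KO +Leu peaks had a WT center 0 to 100 bp away, 19 had one at 101 to 200 bp and 13 at 201 to 300 bp, whereas the steps from 301 to 2000 bp held 5 to 16 peaks each with a median of 10. In GCN2 KO -Leu the first 3 steps held 71, 24 and 18 peaks and the later ones 2 to 16 with a median of 8. All shared peaks with TGATGCAA had their partner at 100 bp or less, 32 of 97 such peaks with leucine and 21 of 67 without it, against 0 of 32 and 0 of 42 at 101 to 300 bp. Peaks with TGATGNAA lay a median of 14.0 bp from the WT center and the rest a median of 88.0 bp. Just inside the limit stood a Podn peak of GCN2 KO +Leu (277 bp, score 34) and an Elfn1 peak of GCN2 KO -Leu (299 bp, score 20), and just outside it a Nudt16 peak (304 bp, score 30) and a Zfp318 peak (304 bp, score 20), in the same order, all chosen for their distance.

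**Figure D2:**
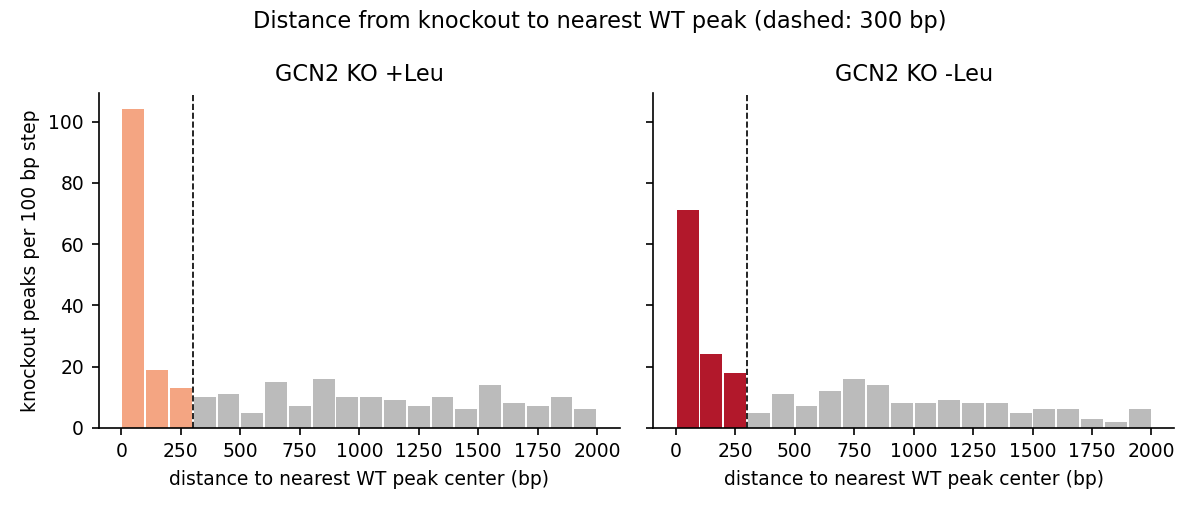
Number of knockout peaks (y axis) by the distance in bp from their center to the nearest WT peak center (x axis, 100 bp steps to 2000 bp), for GCN2 KO +Leu (left) and GCN2 KO -Leu (right), with the 300 bp limit dashed. The first step, 104 and 71 peaks, is the only one that stands well clear of the level beyond the limit, and the steps at 101 to 300 bp, with 13 to 24 peaks, are nearer to that level.

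The few strongest peaks of each knockout list were mostly shared with WT. All 10 of the strongest peaks of either knockout list had a WT partner, as did 29 of the 32 GCN2 KO +Leu peaks with a score of at least 100 (90.6%, 75.8 to 96.8) and all 13 in GCN2 KO -Leu (lower limit 77.2%). Of the 50 strongest knockout peaks, 34 with leucine and 26 without it had one, and at a score of at least 50 the shares were 48 of 174 (27.6%) and 36 of 131 (27.5%). Under a score of 30 the shares were 45 of 1875 (2.40%) and 34 of 1280 (2.66%), so that weak peaks were among the shared ones too. The median score of shared peaks was 36.5 with leucine and 37 without it, against 29 and 30 for the rest. The first unpartnered peak came at rank 20 in GCN2 KO +Leu, at Eef1a1, with a score of 127 and its nearest WT peak 682 bp away. In GCN2 KO -Leu it came at rank 14, inside the rRNA precursor gene Rn45s. Both were chosen after their values were seen. Of the 95 knockout sites listed in both media 38 were shared with WT (40.0%, 30.7 to 50.1), against 172 of 6038 listed in 1 knockout medium (2.85%, 2.46 to 3.30).

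Chac1, which encodes a γ-glutamylcyclotransferase that degrades glutathione, had the top peak of both +Leu lists, at its promoter (chr2:119350903-119351203, 189 bp upstream of the TSS). The site scored 1499 with and 2515 without leucine in WT, and 391 with and 184 without it in GCN2 KO. Both WT scores were above both knockout scores, and the difference between media pointed in opposite directions, 1.68 times higher without leucine in WT and 0.471 times as high in GCN2 KO.

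Ubr2, an E3 ubiquitin ligase of the N-degron pathway, carried its site in an intron (chr17:46994975-46995275), with scores of 1209 with and 2249 without leucine in WT, and 387 with and 222 without it in GCN2 KO. An intergenic site 21555 bp upstream of Klhdc4, which encodes a kelch-domain protein (chr8:121850974-121851274), scored 1409, 2319, 328 and 132 in that order. Both followed the order seen at Chac1, and they were ranks 2 to 4 of both WT lists. Atf5, a bZIP factor of the same response, had an intron site with scores of 808 and 1569 in WT and of 228 and 205 in GCN2 KO, with and without leucine. Here the knockout scores hardly differed between media, and both were below the WT scores.

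Other strong sites had another order. Creb3l1, a membrane-bound bZIP factor, was nearest to an intergenic CpG island site 31442 bp upstream (chr2:92055462-92055762) that scored 295 with and 1066 without leucine in WT, and 262 with and 228 without it in GCN2 KO. The 2 knockout scores were thus close to that of WT +Leu, and WT -Leu stood alone. Tgif1, a homeodomain repressor, was nearest to a site in a Tigger7 DNA transposon (chr17:70836899-70837199) that scored 143 with and 1391 without leucine in WT, and 259 with and 353 without it in GCN2 KO. It was the top peak of GCN2 KO -Leu, and in leucine-fed cells the knockout score was the higher one, with a WT to knockout ratio of 0.552.

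**Figure D3:**
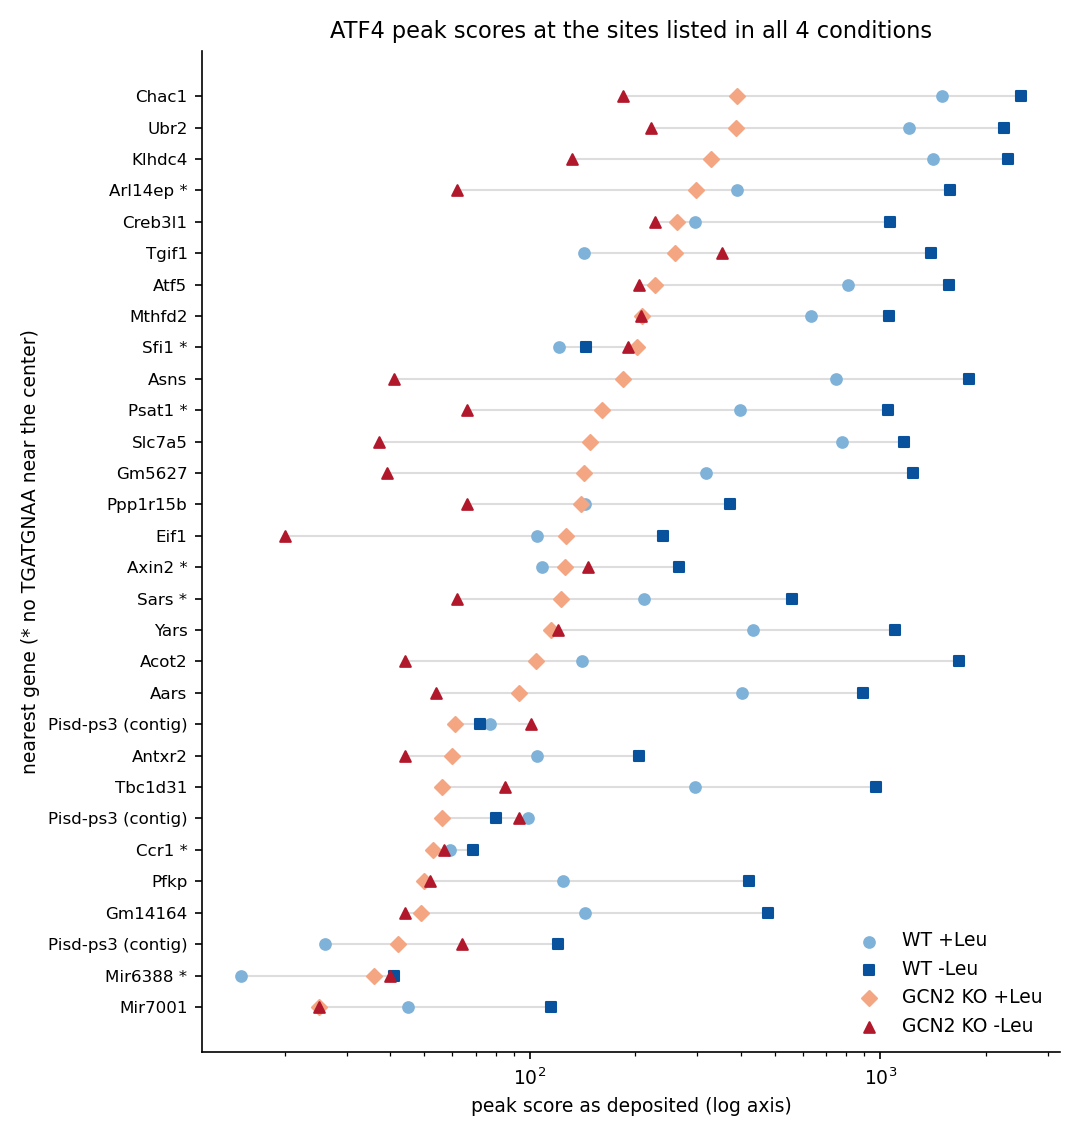
Peak scores as deposited (x axis, log scale) at 30 of the 31 shared sites listed in all 4 conditions, named by the nearest gene and ordered by the GCN2 KO +Leu score, with 1 point per library. WT -Leu is the highest point at most sites, and at Sfi1 and at 1 of the Pisd-ps3 contig sites a knockout point is.

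Genes of amino acid supply and of the stress response were counted on lists. Of 941 genes with a knockout peak within 5 kb of the TSS, 75 had a shared one (7.97%). Of the 234 genes on the 8 amino acid and stress lists used here, 35 had a knockout peak within 5 kb and 28 of these a shared one. The 28 include genes for which ATF4 binding is well known, so that the lists were not drawn independently of the outcome.

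Among 38 aminoacyl-tRNA synthetases, which attach amino acids to tRNAs, 9 had a shared site within 5 kb (Aars, Gars, Iars, Lars, Mars, Nars, Sars, Wars and Yars). All 9 were in the GCN2 KO +Leu list and 3 in the GCN2 KO -Leu list, while 12 had a peak in both WT lists. The Yars site, 92 bp into the gene, scored 432 with and 1098 without leucine in WT, and 115 with and 120 without it in GCN2 KO. The Aars promoter scored 404, 893, 93 and 54, and the first intron of Sars 211, 559, 123 and 62, in the same order of lists. All 3 had WT scores above the knockout scores in either medium. The other 6 were absent from GCN2 KO -Leu, and their GCN2 KO +Leu scores lay between 29, at Wars, and 47, at Iars. The Iars promoter scored 185 in WT +Leu and 662 in WT -Leu, and the Wars promoter had no WT +Leu peak and scored 360 in WT -Leu.

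Enzymes of serine, glycine and one-carbon metabolism had 3 shared genes of 18. Mthfd2, the mitochondrial folate dehydrogenase, scored 635 with and 1058 without leucine in WT, and 209 with and 208 without it in GCN2 KO. Psat1, the aminotransferase of serine synthesis, scored 398, 1050, 161 and 66. Shmt2, which makes glycine from serine in mitochondria, scored 530 and 1121 in WT and 120 in GCN2 KO +Leu, with no peak in GCN2 KO -Leu. Mthfd2 was therefore the one of the 3 whose knockout score was level between media.

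Asns, asparagine synthetase, was the only gene of 20 on the list of asparagine, proline, alanine and sulfur amino acid enzymes. Its promoter (chr6:7693083-7693383) scored 746 with and 1787 without leucine in WT, and 184 with and 41 without it in GCN2 KO. The ratio of WT to GCN2 KO was 4.05 with leucine and 43.6 without it, the highest of any shared site without leucine. Of 32 amino acid transporters, Slc1a4, Slc38a2 and Slc7a1 had a shared site within 5 kb, all of them in the GCN2 KO +Leu list alone, with scores of 28, 34 and 77 there. Slc7a5, which takes up leucine, had its shared site in the first intron 9094 bp from the TSS, with scores of 776 and 1171 in WT and of 148 and 37 in GCN2 KO, with and without leucine.

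The list of stress response feedback and effector genes held the most, 11 of 25, and the 11 were all of its genes with a knockout peak within 5 kb. Ppp1r15b, which directs a phosphatase to eIF2α, scored 144 with and 372 without leucine in WT, and 140 with and 66 without it in GCN2 KO. With leucine the WT and knockout scores were thus nearly equal. Arl14ep, which encodes an effector of the small GTPase ARL14, scored 390, 1582, 297 and 62 at its promoter. Ddit3, encoding the bZIP factor CHOP, scored 173 and 736 in WT and 40 in GCN2 KO +Leu. Trib3, a pseudokinase that binds ATF4, scored 101 and 540 in WT and 58 in GCN2 KO +Leu. Kdm6b, a histone H3K27 demethylase, scored 187 and 1791 in WT and 128 in GCN2 KO +Leu, and Cebpg, a C/EBP partner of ATF4, 103 and 559 in WT and 20 in GCN2 KO -Leu. At none of these 4 was a peak listed in the other knockout medium.

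Of 48 bZIP genes, 3 had a shared site (Atf5, Cebpg and Ddit3), of 36 mTORC1 control genes 1, and of 22 autophagy genes none. Any knockout peak within 5 kb was present at 7 of the bZIP genes, 1 of the mTORC1 genes and 0 of the autophagy genes. The mTORC1 gene was Eif4ebp1, the translational repressor 4E-BP1, with scores of 137 and 500 in WT and 211 in GCN2 KO +Leu. In leucine-fed cells its knockout score exceeded the WT one. None of 77 ribosomal protein genes had a shared site. Only 2 of them had a knockout peak within 5 kb, too few to set against the 7.97% over all such genes. Eif1, the factor that guards start codon choice, scored 105 with and 239 without leucine in WT, and 127 with and 20 without it in GCN2 KO, and Acot2, a mitochondrial acyl-CoA thioesterase, 141, 1676, 104 and 44. Acot2 had the largest WT ratio of -Leu to +Leu among the shared sites, 11.9, and Eif1 the smallest knockout ratio, 0.157.

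The question of leucine withdrawal in each genotype was put to the sites in both media. In WT, 75 of the 80 shared sites of both lists scored higher in WT -Leu (93.8%), with a median ratio of 2.69 and a range from 0.687 to 11.9. Over all 308 peaks common to the WT lists 81.8% did (median ratio 2.36), and of the 228 with no knockout peak nearby 77.6% (2.16). By percentile within each list, 37 of the 80 (46.2%) were higher in WT -Leu, near an even split. Near the top of a list a small slip in rank counts as lower, as at Chac1, rank 1 with and 2 without leucine. No percentile count over the 308 common peaks is given. On the scores, the difference between the shared sites and those 228 was 16.1 points. All these sites come from the same pair of libraries, so no interval is given. The shared sites also had higher WT +Leu scores, a median of 118.5 against 46.0, and the part of that in the difference was not tested. In GCN2 KO, 17 of 38 shared sites in both media scored higher without leucine (44.7%), 20 lower and 1 equal, with a median ratio of 0.968. That share is near the 45.9% of all 98 peaks common to the knockout lists. By percentile within each list, 21 of the 38 were higher in GCN2 KO -Leu, so neither scale gave a clear direction in the knockout.

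The sites in both media were then divided by the element. At the 20 sites with TGATGNAA in all 4 lists, every WT ratio was above 1 (1.51 to 11.9), while the knockout score was lower without leucine at 15, higher at 4 and equal at 1, with a median ratio of 0.657. The 4 were Tgif1, Tbc1d31, Yars and Pfkp, and the largest of their ratios was 1.52, at Tbc1d31. At the 8 assembled sites without TGATGNAA in all 4 lists every WT ratio was above 1 as well, and the knockout score was higher without leucine at 3 and lower at 5, with a median ratio of 0.733. On percentiles within each list, the WT value was higher without leucine at 6 of the 20 sites with TGATGNAA and at 2 of the 8 without it. The knockout percentile was higher without leucine at 7 of the 20 and at 4 of the 8. At the 3 contig sites in all 4 lists the knockout score was higher without leucine (median 1.66). At 20 of the 31 sites in all 4 lists the score was higher in WT -Leu and lower in GCN2 KO -Leu, and at 2, both on a contig, the reverse held. With 1 library per condition these differences have no test, and unequal depth or enrichment of the libraries cannot be told apart from them.

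**Figure D4:**
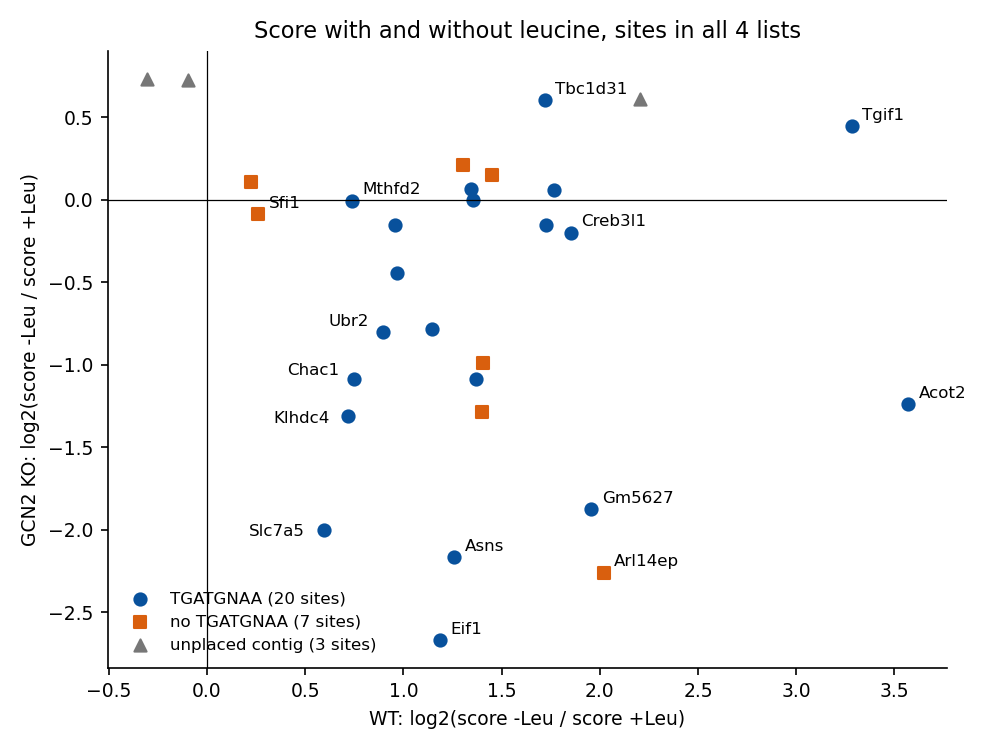
log2 ratio of the score without leucine to that with leucine in WT (x axis) and in GCN2 KO (y axis) at 30 of the 31 sites of all 4 lists, by whether the window held TGATGNAA. Points with TGATGNAA lie to the right of 0, most of them below 0 on the knockout axis, whereas the 3 contig sites lie above it.

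The same division was made between genotypes. With leucine, 62 of 93 shared sites scored higher in WT (66.7%, median WT to knockout ratio 1.5). The count was 28 of 30 with TGATGCAA (median 3.05), the 2 exceptions being Nars and Eif1, but 25 of 48 without TGATGNAA (median 1.04). Without leucine, 64 of 82 scored higher in WT (78.0%, median 2.07). With TGATGCAA it was all 22 (median 10.5, from 4.60 at Mir7001 to 31.7 at Gm5627), and without TGATGNAA 35 of 51 (median 1.33). The median ratio was thus several times 1 with the element and nearer to 1 without it, although single sites without it reached 32.5, at an intron site with Mir701 as its nearest listed gene. By percentile within each list, the WT value was higher with leucine at 53 of the 93 sites. It was higher at 22 of the 30 with TGATGCAA and at 24 of the 48 without TGATGNAA. Without leucine the counts were 47 of 82, 20 of 22 and 23 of 51, in that order.

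Some strong shared sites without the element lay in ribosomal RNA sequence or in a CpG island. The Sfi1 site, in a CpG island of the first intron (chr11:3193181-3193481), scored 121 with and 145 without leucine in WT, and 202 with and 190 without it in GCN2 KO. An intergenic site annotated as a large-subunit rRNA repeat, with Axin2 as the nearest gene 91496 bp away, scored 108, 267, 126 and 146. A site in Rn45s, the 45S rRNA precursor, scored 230 and 250 in WT and 116 in GCN2 KO +Leu, and was chosen after its values were seen. At these sites the listed scores spanned a narrower range than at Chac1 or Asns.

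The unplaced contig JH584304, next to the pseudogene Pisd-ps3, held 6 of the 7 shared sites off the assembled chromosomes. Every list had 7 to 9 peaks there, with median scores of 53 with and 76 without leucine in WT, and 56 with and 64 without it in GCN2 KO. One of its sites, listed in all 4, scored 77 with and 72 without leucine in WT, and 61 with and 101 without it in GCN2 KO. Exact 50-base stretches, the read length, recurred elsewhere in the reference in 5 of the 203 assembled sites, Gm5627 and a Rn45s site among them. A stretch at Gm5627 occurred up to 11474 times, and at that Rn45s site up to 2 times. Copies that the reference lacks could not be counted. The part of repeated copies in the scores was not tested. Without sites annotated in a repeat, 181 of 210 remained, all 39 with TGATGCAA included.

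The 130 sites with a partner in 1 WT list were mostly weak. Their median knockout score was 29 with leucine and 30 without it, as in the lists as a whole, against 60.5 and 59 for sites in both WT lists. Some had a strong WT -Leu peak, among them the site near Mir701 (909 in WT -Leu, 28 in GCN2 KO -Leu), an intergenic site near Actr2 (586, and 28 in GCN2 KO +Leu), the Wars promoter (360, and 29 in GCN2 KO +Leu) and an intron of Wdfy3, a protein of selective autophagy (246, and 91 in GCN2 KO +Leu). Mir701, Actr2 and Wdfy3 were chosen after their values were seen.

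Shared sites were more often near a TSS. Of the 210, 50 lay within 1 kb of a TSS or were annotated as promoter (23.8%, 18.6 to 30), against 247 of 5923 unpartnered sites (4.17%, 3.69 to 4.71), a difference of 19.6 points (14.4 to 25.9). By list it was 45 of 136 shared GCN2 KO +Leu peaks (33.1%; 5.27% of the whole list) and 18 of 113 shared GCN2 KO -Leu peaks (15.9%; 4.79% of the whole list). Sites in both WT lists reached 36 of 80 (45.0%, 34.6 to 55.9) and those in 1 WT list 14 of 130 (10.8%, 6.52 to 17.3). Introns and intergenic sequence still held 79 sites each. Repeats were the annotation of 29 shared sites (13.8%) and of 22.2% of the unpartnered ones, a difference of -8.34 points (-12.5 to -2.92). In the RefSeq promoter table of mouse, which runs from 250 bases before to 50 after a start, TGATGCAA occurred for 8 of 54 genes with a shared site within 5 kb (14.8%, 7.70 to 26.6) and for 279 of 27025 genes in all (1.03%). These 54 are fewer than the 75 genes counted above, and genes with unpartnered knockout peaks alone were not counted in the promoter table.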

How the data were processed

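ATF4 ChIP-seq had been performed on 4 libraries, WT and GCN2 KO MEFs with and without leucine for 24 h. Per the study's methods and the submitters' processing notes, the authors aligned single 50-base reads to mm10 with BWA 0.7.12, called peaks with MACS2 2.1.0 at a false discovery rate of 0.05 and annotated summits ±150 bp with HOMER 4.7. The deposited score of each peak is a whole number whose scale is not given in the sources used here. Besides the score, HOMER's TSS distance and GC and CpG contents, each a fraction, were deposited. The 2 input libraries were not analysed here.

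Peak centers were start plus 150 bp. WT partners lay 300 bp or less away, the distance of the study's methods, and knockout peaks that close together were merged into sites. Sequence came from GRCm38, used after the deposited GC fraction of every peak on assembled chromosomes had been checked to equal that of the reference. The motifs TGATGCAA, TGATGNAA, TGACGTCA and TGANTCA were searched on both strands within 50 bp of the center. Contig sites were not searched. Shares are given with 95% Wilson intervals and differences with Newcombe intervals. Both cover counting error only. Shares of score directions are given without an interval, because all their sites come from the same pair of libraries. Depth is unknown, so the precision of a score is too. With 1 library per condition no test was made. Sites without counterpart in a list were left out of its ratios.

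The members, gene lists and alternatives were chosen with earlier results of these data known. Named genes are those nearest to a shared site in all 4 lists and within 5 kb of a TSS, at the 10 highest-scoring shared sites of each knockout list, on a gene list with a shared site within 5 kb, or nearest to a shared site with TGATGCAA. Genes outside this rule are said to be chosen after their values were seen. A few items are not reported here. The alternatives were other distances (100 bp and 1 kb), score minimums of 30, assembled chromosomes only, no repeats, other motif and TSS windows, and percentiles. Python 3.11.15, numpy 2.4.6, pandas 2.3.3, numba 0.67.0, pysam 0.24.0, matplotlib 3.10.9 and samtools 1.23.1 were used, and simulated data were used for testing the partner and motif searches.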

Additional observations from a re-analysis of the deposited data

Results flagged for a closer look

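At 22 of the 31 sites in all 4 lists the score moved one way with leucine withdrawal in the WT library and the other way in the GCN2 KO library. By percentile within each list, 9 of the 31 were higher in WT -Leu, against 29 by score. In GCN2 KO -Leu 14 were higher by percentile, against 10 by score, so these directions depend on the scale. Each arm is 1 library, so the difference between genotypes was not tested, and the values below are the WT log2 ratio of -Leu to +Leu minus that of GCN2 KO. Higher in WT -Leu and lower in GCN2 KO -Leu were 20 sites. The difference was 4.81 at Acot2, 4.28 at Arl14ep, 3.85 at Eif1, 3.83 at Gm5627 and 3.43 at Asns. It was 2.69 at Psat1, 2.59 at Slc7a5, 2.45 at Ppp1r15b, 2.39 at Sars, 2.05 at Creb3l1 and 2.03 at Klhdc4. It was 1.93 at Aars, 1.88 at Gm14164, 1.83 at Chac1, 1.70 at Ubr2, 1.41 at Antxr2, 1.11 at Atf5, 0.74 at Mthfd2 and 0.35 at Sfi1. At Mthfd2 and Sfi1 the knockout part was small, with log2 ratios of -0.01 and -0.09. The 2 sites lower in WT -Leu and higher in GCN2 KO -Leu were both at Pisd-ps3 on an unplaced contig, with differences of -0.82 and -1.04. Of the 20, 15 held TGATGNAA.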

How the results depend on the processing

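The share of shared sites with TGATGCAA was 19.2% and moved to 25.6% with TGATGNAA, to 28.5% with partners 100 bp or less away, to 11.6% with partners up to 1000 bp away and to 27.7% with a GCN2 KO score of at least 30, under which the number of sites moved from 210 to 136. A limit of 1000 bp gave 354 sites. The share near a TSS, 23.8%, was 13.8% for annotated promoters alone, 36.7% within 5 kb and 17.5% with partners up to 1000 bp away. On percentiles within each list the share of sites higher in WT -Leu than in WT +Leu went from 93.8% to 46.2%, near an even split. The share higher in WT than in GCN2 KO without leucine went from 78.0% to 57.3%. The cause was not tested. Among sites with TGATGCAA, the score was higher in WT -Leu at 100% (by percentile at 11 of 36). With leucine it was higher in WT than in GCN2 KO at 93.3% (by percentile at 22 of 30). Without leucine it was so at 100% (by percentile at 20 of 22). The other settings run kept each value within the interval of its main value, or its count within 1.5 times. No paired analysis was possible because each condition had 1 library, and for the same reason no replicate could be left out. The lists give no depth, so whether a site missing from a knockout list was unbound or under the calling threshold cannot be told apart.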
